A study of Mus musculus with 6 samples.

Results

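The constitutive proteasome subunits are the genes that build the protease found in every cell, together with its activators, inhibitor and assembly chaperones. Members were the rows annotated protein coding whose symbol starts with Psma, Psmb, Psmc, Psmd, Psme, Psmf or Psmg followed by a digit, without the immunoproteasome subunits Psmb8, Psmb9 and Psmb10. This gave 47 of the 51912 gene IDs in the deposited table. The rule took in Psmc3ip, which encodes a meiotic recombination factor, and Psme2b, a near-copy of Psme2, and neither is a subunit with a role in the groups below. Of the 47 members, 44 reached a mean of at least 1 TPM over the 6 libraries and were tested. The members below that mean were Psma8, a testis subunit listed at 0 in every library, Psmb11, a thymus subunit with at most 1 recovered read in any library, and Psmg3, an assembly chaperone gene at 0.354 to 1.19 TPM. TPM (a level scaled by gene length and library size) is the unit named by the deposited table, though its columns summed to 161231 to 171577 and not to 1000000.

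RNA was sequenced in bulk from mouse bladder tumor organoids, 3-dimensional cultures of tumor cells, of the strain C57BL/6. In 3 libraries the organoids had received SRT1720, a compound developed to activate the NAD-dependent deacetylase SIRT1, and in 3 they had received vehicle. The labels give no dose, time or age, no tumor genotype or way of tumor induction, and do not say whether each replicate had its own culture or animal. The p-values therefore speak of the spread among these 6 libraries alone, and whether it is a spread between animals or between cultures is not known. In bulk samples, fewer cells of a type and less RNA per cell cannot be told apart.

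Proteins marked with ubiquitin are unfolded and cut by the proteasome. Its 20S core is a barrel in which rings of alpha subunits control entry and rings of beta subunits carry the proteolytic sites. The 19S particle caps the core: its base holds a ring of ATPases that unfold the substrate and push it into the core, and its lid holds a deubiquitinase that removes the ubiquitin chain. Other caps, the 11S activators and PA200, open the core without ATP. When proteasomes are inhibited, mammalian cells raise the mRNA of most subunits together, through the transcription factor encoded by Nfe2l1.

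The libraries of a group were unlike each other. The basal keratin gene Krt5 ranged from 425 to 1120 TPM in 4 libraries but was at 9.61 TPM in Vehicle 2 and at 16.4 TPM in SRT1720 1. Genes on chromosome 3 were low in SRT1720 3 and Vehicle 3. All 8 epithelial markers reached a mean of 1 TPM, and 4 of 9 urothelial markers did, with Upk3a listed at 0. The defining uroplakins were otherwise low, apart from Upk1b at a mean of 5.15 TPM. Of other cell types, 0 of 8 fibroblast, 0 of 6 endothelial, 0 of 5 smooth muscle and 2 of 10 leukocyte markers reached that mean. Single libraries differed from these means. The summed fibroblast markers, mostly Dcn, were at 2.82 TPM in SRT1720 2 and 4.19 TPM in Vehicle 1, and at no more than 0.58 TPM elsewhere. Acta2, a smooth muscle marker, was at 4.26 TPM in Vehicle 3 and at no more than 0.255 TPM elsewhere. The summed leukocyte markers ranged from 1.04 to 11.7 TPM with SRT1720 and from 1.99 to 16.1 TPM with vehicle, and Ptprc, which marks all leukocytes, was at no more than 0.0129 TPM. Most of the sum was Lyz2 in SRT1720 2 and Vehicle 1. The other leukocyte marker above 1 TPM, Cd68, was at 1.31, 0.73 and 1.03 TPM with SRT1720 and at 1.45, 1.92 and 3.09 TPM with vehicle, lower without overlap (log2 fold change −0.62, limma adjusted p = 0.359), and its part in the members' values was not tested. Recovered depth was 18248722 to 22837770 reads per library.

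Promoters of 4 of the 6 19S ATPase genes are shown, since this role had the highest median log2 fold change of the roles with more than 1 gene. They are Psmc5 and Psmc4, which had the highest fold changes of the 6, Psmc2 with a CCAAT box, and Psmc6, whose groups overlapped. The sequences are the 250 bases before the RefSeq start site on GRCm38.p6, 5′ to 3′ on the strand of the gene. Capitals mark TGANNNNGC on either strand, a loose form of the core of the antioxidant response element. That element is bound by the Nfe2l1 and Nfe2l2 proteins with small Maf partners. Capitals also mark CCAAT, the box bound by NF-Y, on either strand. Psmc5 lies on the plus strand at chr11:106255935-106256184, Psmc4 on the minus strand at chr7:28050093-28050342, Psmc2 on the plus strand at chr5:21785025-21785274 and Psmc6 on the plus strand at chr14:45329574-45329823.
Psmc5: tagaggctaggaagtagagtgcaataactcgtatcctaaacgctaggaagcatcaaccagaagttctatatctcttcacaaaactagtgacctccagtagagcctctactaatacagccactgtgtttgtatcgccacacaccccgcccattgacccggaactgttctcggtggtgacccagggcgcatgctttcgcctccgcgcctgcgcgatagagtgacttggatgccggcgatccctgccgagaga
Psmc4: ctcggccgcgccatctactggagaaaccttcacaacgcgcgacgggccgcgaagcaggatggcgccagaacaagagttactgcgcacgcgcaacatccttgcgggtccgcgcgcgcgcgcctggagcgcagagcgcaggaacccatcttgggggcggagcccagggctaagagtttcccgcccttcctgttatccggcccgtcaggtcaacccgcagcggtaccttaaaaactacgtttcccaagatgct
Psmc2: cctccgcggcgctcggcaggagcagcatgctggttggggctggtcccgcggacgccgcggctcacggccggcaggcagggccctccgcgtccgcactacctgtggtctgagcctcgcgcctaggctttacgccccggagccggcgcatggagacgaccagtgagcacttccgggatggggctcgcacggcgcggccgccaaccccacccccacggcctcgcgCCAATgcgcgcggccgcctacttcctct
Psmc6: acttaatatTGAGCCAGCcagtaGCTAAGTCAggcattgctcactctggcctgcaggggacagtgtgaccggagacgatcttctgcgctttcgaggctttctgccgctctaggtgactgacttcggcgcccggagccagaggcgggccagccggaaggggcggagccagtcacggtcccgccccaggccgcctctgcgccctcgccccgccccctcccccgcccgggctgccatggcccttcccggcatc
The Psmc5 and Psmc4 windows held neither motif, the Psmc2 window held 1 CCAAT box, and the Psmc6 window held 2 matches to TGANNNNGC. Of the 5 ATPase promoters in the table, Psmc1 included, 2 held CCAAT and 1 held TGANNNNGC. A promoter was found for 39 of the 47 members. TGANNNNGC was present in 14 of these 39 (35.9%), against 35.3% of the promoters of 16476 protein-coding genes. CCAAT was also present in 14 of 39 (35.9%), against 36.0% of all. Over windows of the same length the members therefore held matches to both patterns about as often as other genes, and binding was not tested.

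By limma on log2(TPM + 1) with Benjamini-Hochberg adjustment, 0 of the 44 tested members passed an adjusted p of 0.05, and 0 of all 9287 tested genes did (0.0%). The lowest adjusted p among members was 0.282, for Psmc5. At an unadjusted p under 0.05 there were 8 members, all with the higher mean under SRT1720, where 7.86% of all genes met that rule in this direction and 4.55% in the other. The lowest of the 3 SRT1720 values lay above the highest of the 3 Vehicle values in 13 members, where 12.1% of all genes did so, and in 0 members the reverse held, where 7.75% of all genes did so. Log2 fold changes, SRT1720 minus Vehicle, were above 0 in 38 members and below 0 in 6, against 54.8% above 0 over all genes. Their median was 0.29, beside 0.04 over all genes tested. Without Psmc3ip and Psme2b the median was also 0.29, over 42 members.

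**Figure D1:**
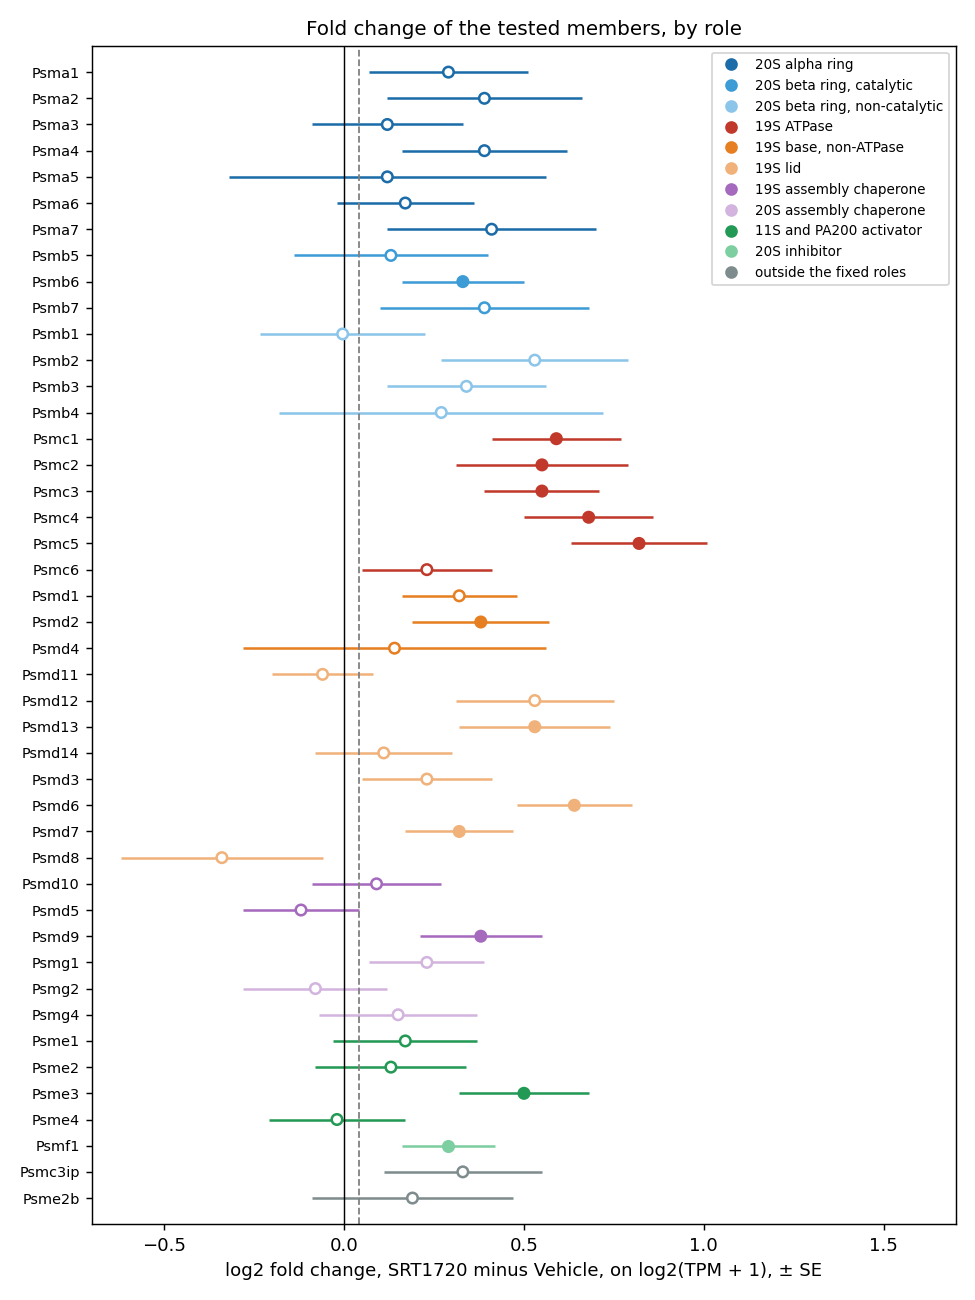
Log2 fold change (x axis, SRT1720 minus Vehicle on log2(TPM + 1)) of the 44 tested members (y axis), grouped by role, with bars for ± SE from limma. Filled points are the 13 members whose libraries did not overlap between groups, and the dashed line is the median of all tested genes, 0.04. The ATPase Psmc5, at 0.82, lies furthest to the right and Psmd8, at −0.34, furthest to the left, and the ATPase Psmc6, at 0.23, lies left of the members' median.

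The ATPases of the 19S base were the role with the highest median log2 fold change, 0.57 over 6 genes, and in 5 of the 6 the groups did not overlap (12.1% over all genes). Psmc5, the Rpt6 subunit on chromosome 11 from 106256154 to 106263120 (ENSMUSG00000020708), was at 33.6, 44.7 and 34.1 TPM in the 3 SRT1720 libraries, in the order of their numbers, and at 23.6, 18.4 and 20.1 TPM in the 3 Vehicle libraries. Every SRT1720 library was above every Vehicle library, and the means were 37.5 ± 6.25 and 20.7 ± 2.66 TPM (SD, n = 3). The log2 fold change was 0.82 (SE 0.19, limma adjusted p = 0.282), a 1.76-fold difference on the log2(TPM + 1) scale.

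Psmc4, the Rpt3 subunit on chromosome 7 from 28041707 to 28050101, was at 13.8, 13.2 and 10.8 TPM with SRT1720 and at 7.25, 8.97 and 6.39 TPM with vehicle. The lowest SRT1720 value was again above all Vehicle values, with a log2 fold change of 0.68 (SE 0.18, limma adjusted p = 0.295). Psmc1 (Rpt2, chromosome 12, 100110154 to 100123405) was at 30.7, 30.3 and 24.6 TPM against 20, 19.5 and 16.4 TPM. Psmc3 (Rpt5, chromosome 2, 91054009 to 91066369) was at 15.5, 15.9 and 13.0 TPM against 9.32, 10.6 and 9.5 TPM. In both genes replicate 3 was the lowest SRT1720 library and still lay above the Vehicle libraries, with log2 fold changes of 0.59 (SE 0.18) for Psmc1 and 0.55 (SE 0.16) for Psmc3.

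Psmc2 (Rpt1, chromosome 5) was at 14.8, 15.3 and 10.4 TPM against 9.93, 10.4 and 6.49 TPM. Its groups were apart by less than the printed digits, since SRT1720 3 and Vehicle 2 both rounded to 10.4 TPM, and its log2 fold change was 0.55 (SE 0.24, limma adjusted p = 0.41). Psmc6 (Rpt4, chromosome 14) differed from the others in that its groups overlapped, at 51.6, 38.0 and 41.1 TPM with SRT1720 and 36.8, 34.6 and 39.2 TPM with vehicle. Its log2 fold change was 0.23 (SE 0.18, limma adjusted p = 0.661).

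**Figure D2:**
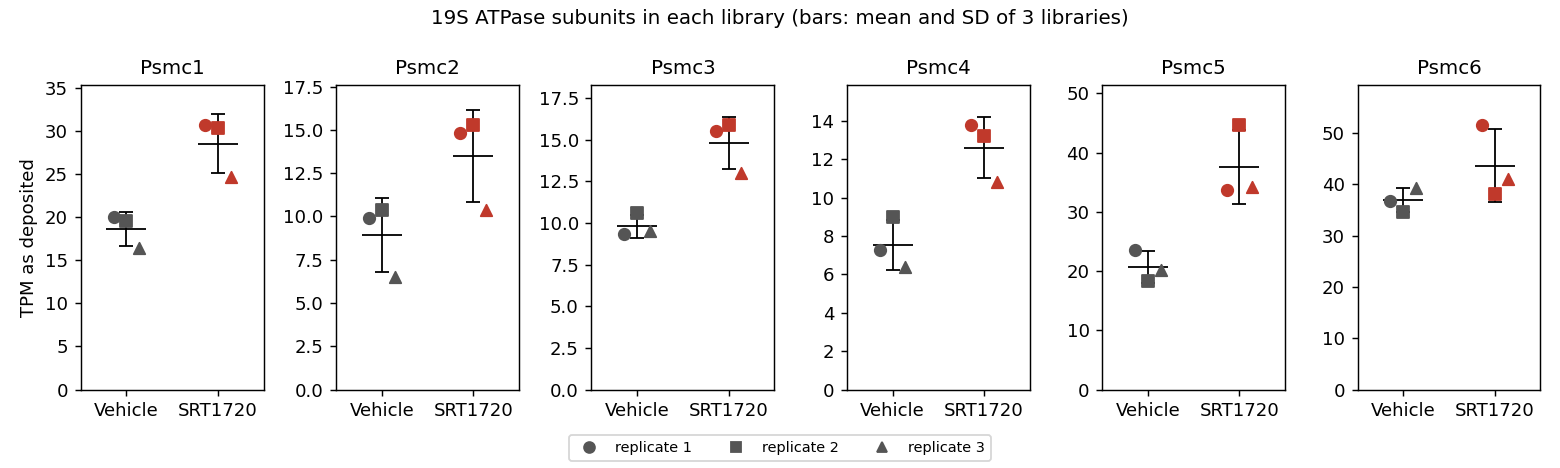
TPM as deposited (y axis, from 0, a separate scale per gene) of the 6 ATPase genes in each Vehicle (grey) and SRT1720 (red) library, with circles, squares and triangles for replicates 1, 2 and 3 and bars for the mean and SD of 3 libraries. SRT1720 libraries lie above Vehicle libraries for Psmc1 to Psmc5, barely so for Psmc2, and overlap them for Psmc6.

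Within the lid, Psmd6 (Rpn7, chromosome 14 from 14112174 to 14120984) stood furthest apart. It was at 12, 10.1 and 12 TPM with SRT1720 and at 6.2, 7.51 and 7.03 TPM with vehicle. No libraries overlapped, and the log2 fold change was 0.64 (SE 0.16, limma adjusted p = 0.284). Psmd7, the partner of the lid deubiquitinase, and Psmd13 were also free of overlap, at 29.2 ± 1.30 against 23.1 ± 1.75 TPM and at 7.51 ± 0.884 against 4.98 ± 1.38 TPM (SD, n = 3).

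Psmd14, the deubiquitinase itself, was at 14.7, 11.7 and 12 TPM with SRT1720 and at 11.4, 14.1 and 10 TPM with vehicle. Its highest values were in SRT1720 1 and Vehicle 2, so the groups overlapped, and its log2 fold change was 0.11 (SE 0.19, limma adjusted p = 0.868). Psmd8, named here after its values were seen, had the lowest log2 fold change of the tested members, −0.34 (SE 0.28, limma adjusted p = 0.67). It was at 19.4, 12.3 and 11 TPM against 16.0, 24.0 and 14.5 TPM, again highest in SRT1720 1 and Vehicle 2. Over the 8 lid genes, 6 log2 fold changes were above 0, against 54.8% of all genes, with a median of 0.28, and 3 were free of overlap with the higher values under SRT1720 (37.5%, beside 12.1% of all genes). The lid genes Psmd3, Psmd11 and Psmd12 overlapped between groups, with log2 fold changes of 0.23, −0.06 and 0.53.

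Of the non-ATPase base subunits, Psmd2 (Rpn1), which docks ubiquitin shuttle proteins, was at 24.8 ± 3.69 against 18.8 ± 2.97 TPM (SD, n = 3). Its lowest SRT1720 value and its highest Vehicle value both rounded to 22 TPM. Psmd1 (Rpn2) was at 7.08 ± 0.842 against 5.48 ± 0.705 TPM, and its groups overlapped. The ubiquitin receptor Psmd4 is described with the genes of chromosome 3. The assembly chaperones of the base, Psmd5, Psmd9 and Psmd10, had log2 fold changes of −0.12 to 0.38. Only Psmd9, at 2.80, 2.22 and 1.57 TPM against 1.47, 1.42 and 1.36 TPM, was free of overlap among these 3 (33.3%, beside 12.1% of all genes).

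In the 20S core the median log2 fold change was below that of the ATPases, 0.57, and near that of all tested members, 0.29. Over the 14 tested alpha and beta ring genes, 13 were above 0, the median was 0.31 and 1 was free of overlap (7.14%, beside 12.1% of all genes). Psmb6, which encodes the caspase-like site, was at 22.4, 24.2 and 18.7 TPM with SRT1720 and at 18.4, 17.2 and 15.3 TPM with vehicle, without overlap. Its log2 fold change was 0.33 (SE 0.17, limma adjusted p = 0.489).

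Psmb7, which encodes the trypsin-like site, was at 13.4, 14.2 and 10.3 TPM against 13.9, 6.25 and 9.08 TPM. Vehicle 2 was the lowest library and Vehicle 1 lay among the SRT1720 libraries, and the log2 fold change was 0.39 (SE 0.29, limma adjusted p = 0.629). Psmb5, which encodes the chymotrypsin-like site, the main target of the inhibitor bortezomib, was at 18.4, 12.9 and 15 TPM against 11.5, 20.3 and 11.5 TPM. Here Vehicle 2 was the highest library of all, and the log2 fold change was 0.13 (SE 0.27, limma adjusted p = 0.898).

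Psmb1, a beta subunit without a proteolytic site, had the highest deposited level of all members, with a mean of 76.6 TPM. It was at 71.3, 89.5 and 67.1 TPM with SRT1720 and at 99.1, 61.3 and 71.2 TPM with vehicle, a log2 fold change of −0.0042 (SE 0.23). The 7 constitutive alpha ring genes all had log2 fold changes above 0, from 0.12 for Psma3 and Psma5 to 0.41 for Psma7, with 0 of 7 free of overlap (12.1% of all genes) and limma adjusted p = 0.539 to 0.944. The other beta ring genes without a proteolytic site off chromosome 3, Psmb2 and Psmb3, had log2 fold changes of 0.53 (SE 0.26) and 0.34 (SE 0.22), and their groups overlapped. The ATPases were set against the core within each library. The mean log2(TPM + 1) of the 6 ATPases minus that of the 12 core genes off chromosome 3 was 0.36, 0.20 and 0.21 in SRT1720 1, 2 and 3 and −0.24, 0.21 and −0.02 in Vehicle 1, 2 and 3. Vehicle 2 lay at the level of SRT1720 2 and 3, so the groups overlapped, while Vehicle 1 and Vehicle 3 lay below all SRT1720 libraries.

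Among the activators, Psme3, which encodes the nuclear 11S activator PA28 gamma, was at 20.9, 21 and 17.8 TPM with SRT1720 and at 14.9, 15 and 11.4 TPM with vehicle. Its libraries did not overlap, and its log2 fold change was 0.50 (SE 0.18, limma adjusted p = 0.355). Psme4, which encodes PA200, was at 6.27, 9.5 and 7.99 TPM against 8.79, 7.82 and 7.24 TPM, with a log2 fold change of −0.02 (SE 0.19). The interferon-inducible activators Psme1 and Psme2 overlapped between groups and were highest in SRT1720 3. Psme1 was at 3.10, 2.32 and 3.47 TPM against 1.85, 2.54 and 3.27 TPM, and Psme2 at 1.99, 1.53 and 2.62 TPM against 1.19, 1.90 and 2.28 TPM. Psmf1, which encodes the proteasome inhibitor PI31, was at 1.42 ± 0.196 against 0.972 ± 0.114 TPM (SD, n = 3), free of overlap. Its Vehicle mean was below the filter of 1 TPM, so it was tested only because of its higher SRT1720 values. Psmf1 was counted among the 44 tested members, the 13 without overlap and the 38 above 0. Of the core assembly chaperones Psmg1, Psmg2 and Psmg4, none was free of overlap (12.1% of all genes), and their log2 fold changes were −0.08 to 0.23.

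The immunoproteasome subunits, which replace the catalytic beta subunits under interferon, were low beside their constitutive counterparts. Since deposited levels depend on the gene length used, this was read from mean recovered reads per kilobase of annotated exon. These were 19.7, 23.0 and 219 for Psmb8, Psmb9 and Psmb10, against 770, 1740 and 718 for Psmb5, Psmb6 and Psmb7. Psmb8 was at 0.0981, 0.0986 and 0.610 TPM with SRT1720 and at 0.0943, 0.0696 and 0.927 TPM with vehicle. Psmb9 was at 0.0795, 0.172 and 0.596 TPM against 0.0834, 0.0749 and 0.429 TPM. Both were highest in replicate 3 of each group and stayed below the filter. Psmb10 was at 1.65, 2.27 and 2.21 TPM against 1.17, 0.789 and 1.08 TPM, without overlap, and its log2 fold change was 0.59 (SE 0.15, limma adjusted p = 0.29).

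Across libraries, the levels of the members were highest in SRT1720 1 and 2 and lowest in Vehicle 2 and 3. The median deviation of the 44 members from their 6-library means was 0.24, 0.29 and 0.01 on the log2(TPM + 1) scale in SRT1720 1, 2 and 3, and 0.02, −0.16 and −0.25 in Vehicle 1, 2 and 3. The same median over all tested genes stayed between −0.05 and 0.07. SRT1720 3 and Vehicle 1 thus lay together in the middle. SRT1720 2 held the highest value of 21 members and SRT1720 1 of 14, where 15.1% and 23.1% of all genes peaked. Vehicle 3 held the lowest value of 18 members and Vehicle 2 of 14, where 22.1% and 23.4% of all genes were lowest. The median SD of a member over the 6 libraries was 0.29 (log2), beside 0.28 for all tested genes. Psmd11, a lid subunit, varied least, with an SD of 0.11, and Psmb4 most, with 0.63.

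**Figure D3:**
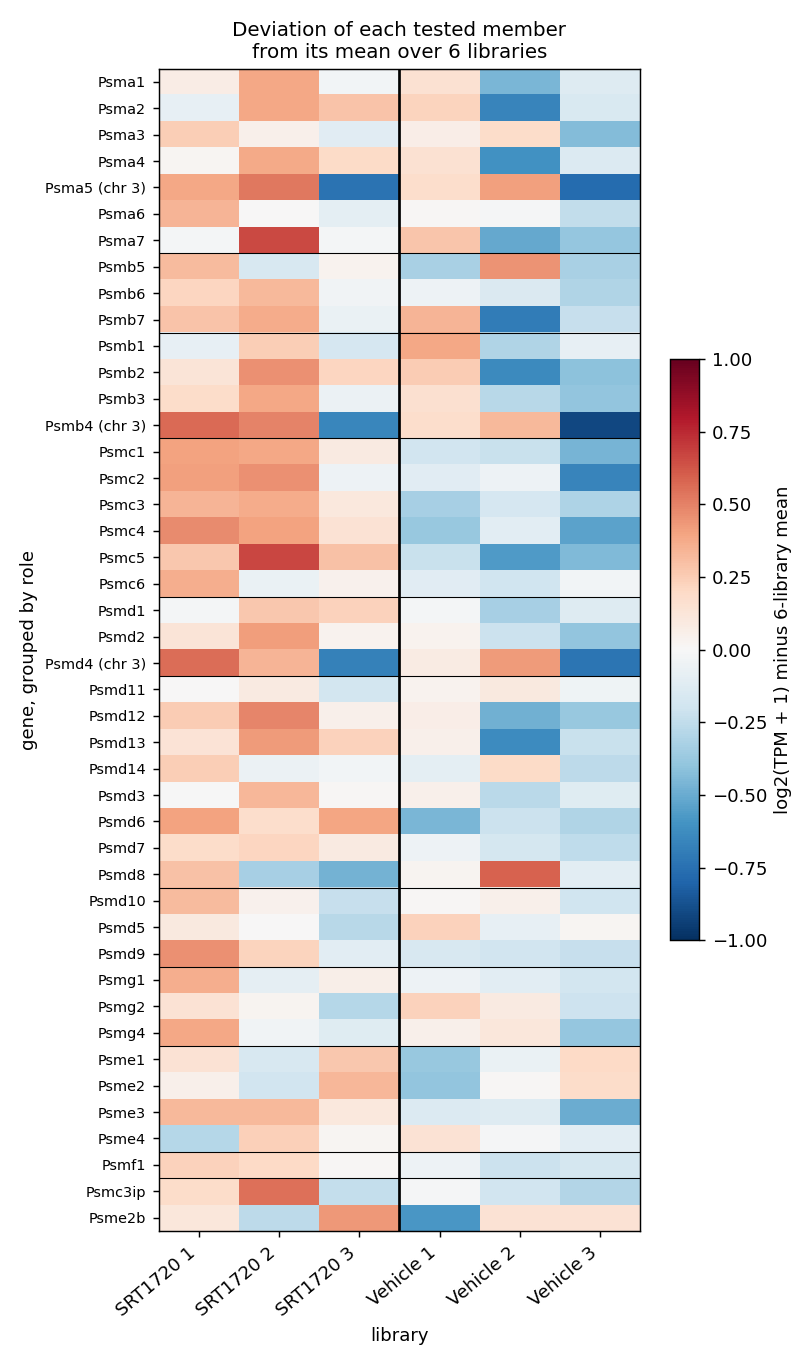
Deviation of each tested member (rows, grouped by role) from its own mean over 6 libraries, in each library (columns), on the log2(TPM + 1) scale. The ATPases are above their means in all cells of SRT1720 1 and most of SRT1720 2 and 3 and below them in the Vehicle cells, and the 3 genes on chromosome 3 are lowest in SRT1720 3 and Vehicle 3.

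The members on chromosome 3 were low in replicate 3 of both groups. Psma5, an alpha ring subunit (108256926 to 108279974), was at 17.9, 19.8 and 7.63 TPM with SRT1720 and at 15.3, 18.2 and 7.46 TPM with vehicle. Psmb4, a beta ring subunit (94884093 to 94886961), was at 32.1, 30.6 and 13.2 TPM against 24.2, 27 and 10.9 TPM. Psmd4, the ubiquitin receptor Rpn10 (95032694 to 95042614), was at 10.6, 9 and 3.96 TPM against 7.39, 9.67 and 3.78 TPM. In all 3 genes SRT1720 3 and Vehicle 3 were the lowest libraries of their groups.

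In SRT1720 3 these genes stood at 40.4% to 42.2% of the mean of SRT1720 1 and 2, where the other tested members had a median of 82.9% and a range of 51.6% to 149%. In Vehicle 3 they stood at 42.4% to 44.6% of the mean of Vehicle 1 and 2, where the other members had a median of 88.7% and a range of 60.6% to 149%. The median deviation of all 407 tested genes on chromosome 3 was −0.39 in SRT1720 3 and −0.41 in Vehicle 3 and lay between 0.14 and 0.26 in the other libraries. The log2 fold changes of these members had the widest errors of the tested members, at 0.12 (SE 0.44) for Psma5, 0.27 (SE 0.45) for Psmb4 and 0.14 (SE 0.42) for Psmd4. Without both SRT1720 3 and Vehicle 3 the median log2 fold change of the 44 members was 0.31, and without both SRT1720 1 and Vehicle 2, the libraries with little Krt5, it was 0.26. The part of these library differences in the members' values was not tested.

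**Figure D4:**
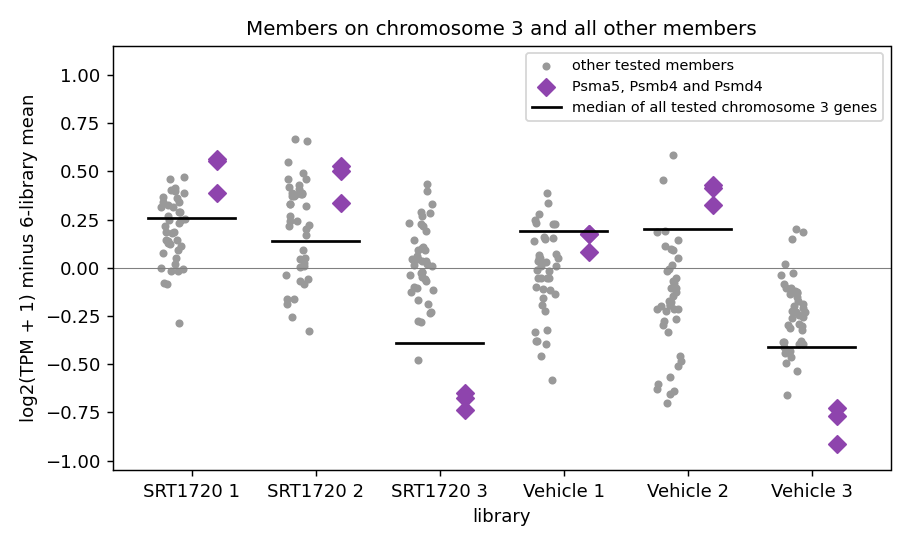
Deviation from the 6-library mean (y axis, log2(TPM + 1) scale) in each library (x axis) for Psma5, Psmb4 and Psmd4 (diamonds), all other tested members (grey points) and the median of all tested genes on chromosome 3 (black lines). The diamonds drop in SRT1720 3 and Vehicle 3, and the black lines stand at −0.39 and −0.41 there.

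Several members share sequence with processed pseudogenes, so how reads were split bears on their levels. At 95% identity or more over at least 300 bases, 13 of the 44 tested members matched a transcript of another gene and 31 did not. Gm13835, a processed pseudogene on chromosome 6 identical to Psma3 over 665 bases, was at 60.9 to 109 TPM, while Psma3 itself was at 2.72 to 4.96 TPM. Only 30.5% to 33.6% of the reads recovered for this pair were on Psma3. Summed over the pair, there were 249 ± 34.2 summed reads per 1000000 with SRT1720 and 231 ± 62.4 with vehicle (SD, n = 3).

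For Psma5 and its copies Gm8394 on chromosome 10 and Gm12989 on chromosome 4, 41.4% to 43.8% of reads were on Psma5, and both copies were also low in SRT1720 3 and Vehicle 3. Gm8394 was at 28.2, 31.6 and 12.4 TPM with SRT1720 and at 24.0, 28.3 and 11.8 TPM with vehicle. Psme2 took 23.1% to 26.4% of the reads that it shared with Psme2b, 99.4% identical over 794 bases. For Psma4 with Gm6542 the share on the member was 71.2% to 76.0%, and for Psmb5 with Gm3375 it was 59.3% to 72.8%, highest in Vehicle 2, the library where Psmb5 itself was highest. Psmc2 to Psmc6 and Psmd6 had no such match, and Psmc1 matched a pseudogene at a mean of 0.558 TPM. Psmd13 overlaps Sirt3 over 329 bases of transcript, and whether reads were counted by strand is not given in the sources used here. Sirt3 was at a mean of 0.374 TPM. Psmc3ip likewise shares 385 bases of transcript with Mlx, at a mean of 3.39 TPM, so its values are uncertain.

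**Figure D5:**
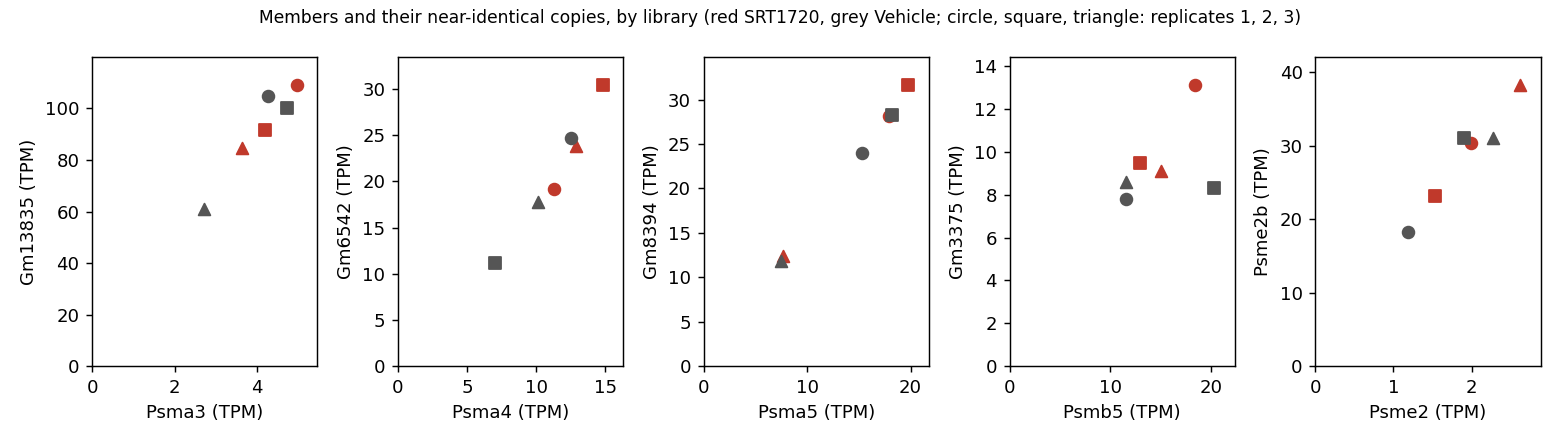
Deposited TPM of 5 members (x axes) and of a near-identical copy (y axes) in each library, with SRT1720 in red, Vehicle in grey, and circles, squares and triangles for replicates 1, 2 and 3. Axes start at 0. In 4 of the 5 panels the copy follows its member from library to library, and in the Psmb5 panel Vehicle 2 is high for Psmb5 but not for Gm3375.

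Deposited levels of different members cannot be compared directly. The length by which Psmb1 was divided came out at 1036 bases, against 4595 bases of annotated exon, and that of Psmd13 at 7867 bases, against 3377. Counted as mean reads per kilobase of annotated exon, Psma6 was the highest member at 2760, followed by Psmd2 at 2450, Psmc5 at 2050 and Psmb4 at 2040, while Psmb1 was at 939. This order also depends on the length chosen, since annotated exon pools all transcripts of a gene. The longest transcript of Psmb1 has 1970 bases. The ratio of a gene's TPM between libraries does not depend on its length, but the log2(TPM + 1) scale shrinks the fold change of a gene with low TPM, and so of one divided by a long length. The differences in Psmd6 and Psmc5 rest on 1275 or more and 1564 or more recovered reads per library. Other named genes without overlap had fewer. Psmf1 had 465 to 948, Psmd9 297 to 672, Psmb10 166 to 572 and Nfyc 166 to 1019.

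The other genes of the pathway had 0 members past limma's test in either direction. Of 12 partners of the proteasome outside the Psm names, 11 were in the table and tested. Of these 11, 8 had log2 fold changes above 0, beside 54.8% of all genes, with a median of 0.03. Pomp, which encodes the chaperone that matures the core, was at 8.53, 8.94 and 8.42 TPM with SRT1720 and 6.89, 5.96 and 5.78 TPM with vehicle. It was the 1 of these 11 genes whose groups did not overlap (9.09%, beside 12.1% of all genes). Its log2 fold change was 0.42 (SE 0.14, limma adjusted p = 0.351). Of 11 tested shuttles and p97 factors, 8 were above 0 (54.8% of all genes) with a median of 0.12. Of 5 tested ubiquitin and E1 genes, 2 were above 0 (54.8% of all genes) with a median of −0.03. Rps27a, which encodes ubiquitin fused to a ribosomal protein, was at 12.2 ± 0.378 against 15.6 ± 0.622 TPM (SD, n = 3), lower in all 3 SRT1720 libraries, with a log2 fold change of −0.34 (SE 0.14, limma adjusted p = 0.407).

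Of the regulators of proteasome genes, 4 of 11 tested were above 0, beside 54.8% of all genes, with a median log2 fold change of −0.18. Nfyc, an NF-Y subunit, was at 3.80, 2.85 and 2.52 TPM with SRT1720 and at 1.57, 2.24 and 0.649 TPM with vehicle, without overlap (log2 fold change 0.75, SE 0.27, limma adjusted p = 0.355). The other NF-Y subunits did not share this direction. Nfya was at 1.87, 2.41 and 2.13 TPM against 2.68, 3.83 and 2.52 TPM, lower without overlap (log2 fold change −0.34, SE 0.17, limma adjusted p = 0.471), and Nfyb had a log2 fold change of −0.14 (SE 0.21) with overlap. Nfe2l1, named here for its known role and not by the rule for named genes, was at 11.5, 7.12 and 4.89 TPM against 16.7, 12.8 and 8.32 TPM. Its libraries overlapped, with the lower mean under SRT1720 (log2 fold change −0.64, SE 0.35, limma adjusted p = 0.497).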

How the data were processed

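The labels name bulk RNA of mouse bladder tumor organoids, 3 libraries with SRT1720 and 3 with vehicle. The authors deposited 1 table of TPM values per gene. STAR 2.6.0 and GRCm38 appear in the submitters' processing notes, and the counter, annotation and gene lengths are not stated there. Low values were whole multiples of 1 read (tolerance 0.01). For each of the 27713 IDs above 0, the shortest length that made every value a whole number of reads was taken. Where reads are few or share a factor, the reads and length recovered this way can be too small. Lyz2, for example, came out at 188 bases, against 1316 bases of annotated exon. Gene positions and types came from GENCODE M21 on GRCm38, which matched 51719 of 51912 IDs, and promoters from RefSeq on GRCm38.p6.

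The 9287 genes whose 6-library mean reached 1 TPM were tested with limma 3.58.1 (R 4.3.3) on log2(TPM + 1), SRT1720 against Vehicle, all libraries, no covariate, calling adjusted p under 0.05 (Benjamini-Hochberg). Fold changes on this scale understate low genes. The code was tested on simulated data. Near-identical transcripts were found with blastn 2.17.0. An exact permutation test of 3 against 3 libraries cannot give a p below 0.1. Within each group no libraries were duplicates, and pairs across groups were not checked for this. The members and gene lists were chosen with earlier results of these data known. Values per library are given for the catalytic genes, the 6 members with the smallest limma p, the member with the highest mean, the members on chromosome 3, Psmd14, the activators, the immunoproteasome and the 3 genes with the smallest limma p over the partner, regulator, shuttle and ubiquitin lists (Pomp, Nfyc and Rps27a). Nfe2l1 was added for its known role with its values known. Beyond these, Psmc2, Psmc6, Psmd1, Psmd2, Psmb2, Psmb3, Psmd3, Psmd7 to Psmd9, Psmd11 to Psmd13, Psmf1, Nfya, Nfyb and the marker genes named were chosen after their values were seen.

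The alternatives were another pseudocount, other filters, other scalings, library weights, voom on recovered reads, a replicate block, and leaving libraries out.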

Additional observations from a re-analysis of the deposited data

How the results depend on the processing

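Under each of the 16 other settings limma called 0 genes and 0 members. The other filters changed the number of genes tested, to 3594 with a mean of at least 5 TPM and to 27713 without a filter. The number of all genes at an unadjusted p under 0.05 was 1153 of 9287, and it ranged from 498 of those 3594 to 2056 of 9287 with library weights. For members it was 8 of 44, and it was 3 without SRT1720 2, where that of all 9287 genes was 523. It was 5 without SRT1720 1 (1010 of all genes), 5 without Vehicle 3 (1007), 5 without both SRT1720 1 and Vehicle 2 (1033), and 16 with library weights (2056). Those weights were 5.6 for SRT1720 2, the library with the highest value of 21 members, and 0.489 to 1.3 for the others. The median log2 fold change of the members ranged from 0.25 to 0.38 and that of the ATPases from 0.51 to 0.70. The removal of Psmc3ip and Psme2b and the ATPase median were added after seeing the data. With a replicate block, 0 members were called, 7 had an unadjusted p under 0.05 and the median was 0.29. Deviations of same-numbered libraries correlated at −0.197, −0.262 and 0.788, while SRT1720 1 correlated with Vehicle 2 at 0.721 and SRT1720 2 with Vehicle 1 at 0.676. Only the replicate 3 libraries correlated best with their own number, so the block does not match this likeness. The labels do not say whether the numbers pair the libraries, and these correlations cannot decide it.

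The sign of the log2 fold change turned for 13 of the 44 members when 1 library was left out, and the cause was not tested. Of these 13, 7 were among the 17 members taken by the rule for named genes. Psma5 ranged from −0.23 without Vehicle 3 to 0.52 without SRT1720 3, and was also below 0 without SRT1720 1 or SRT1720 2. Psmb4 ranged from −0.11 without Vehicle 3 to 0.67 without SRT1720 3, and Psmd4 from −0.18 to 0.52 without the same libraries. Psmb5 ranged from −0.0014 without Vehicle 1 to 0.39 without Vehicle 2, and Psme2 from −0.03 without Vehicle 1 to 0.26 without SRT1720 2. Psmb1 ranged from −0.15 without Vehicle 2 to 0.19 without Vehicle 1, and was at 0.04 both with library weights and without SRT1720 3 and Vehicle 3 together. Psme4 ranged from −0.14 without SRT1720 2 to 0.12 without SRT1720 1, and was at 0.12 with library weights and 0.11 without both SRT1720 1 and Vehicle 2. With 3 libraries a group, differences of the size seen here did not pass adjustment.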
